A study of Homo sapiens with 6 samples.

Results

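HnRNP C controls splicing of many nascent transcripts through uridine-rich sequences. Its gene, HNRNPC, was knocked down in MHCC97H cells, an established human hepatocellular carcinoma line described as highly metastatic, and 9 genes of the p53 pathway were followed. These are MDM2, MDM4 and PPM1D, which restrain p53, and CDKN1A, BBC3, BAX, ZMAT3, SESN1 and RRM2B, which p53 is known to activate. They were taken by symbol from a deposited table of read counts for 15598 genes, where all 9 were present. The groups compared were shcontrol (cells with a control hairpin RNA, whose libraries are NC_3, NC_3_2 and NC_3_3) and shHNRNPC (cells with a hairpin RNA against HNRNPC, with SI_3, SI_3_2 and SI_3_3), with 3 libraries each. The labels tell apart 1 knockdown hairpin, and nothing in them says that the libraries of a group came from separate cultures, although the design text calls the replicates independent. The p-values therefore measure only the spread between these libraries, which may be technical.

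Total counts per library ran from 15563077 to 18328475. HNRNPC itself fell from 853 ± 4.76 to 62.3 ± 3.80 CPM (counts per 1000000 counts of the library; mean ± SD, n = 3), to 7.30% of the shcontrol level. Of the liver markers, SERPINA1 had 52 counts, AFP 12, APOA1 2 and ALB 1 over the 6 libraries, and TTR was not among the counted genes. Among the epithelial markers EPCAM had only 10 counts, whereas the keratins KRT8 and KRT18 had 111566 and 39661. Both keratins were called higher in shHNRNPC (log2 fold changes 0.20 and 0.15). Markers of other cell types summed to between 19.6 and 21.4 CPM per shcontrol library for fibroblasts (19.7 to 21.2 in shHNRNPC), mostly COL1A1 (1616 counts over the 6 libraries) and PDGFRB (429). Leukocyte markers summed to 1.88 to 2.85 CPM (1.89 to 2.77), led by ITGAM (174 counts), and endothelial markers to 1.18 to 2.10 CPM (0.791 to 1.19), led by VWF (65 counts). None of the 4 fibroblast and leukocyte markers tested was called, and no endothelial marker had enough counts to be tested. CPM values are scaled by TMM, which evens out library composition. Fold changes are shHNRNPC over shcontrol from edgeR's quasi-likelihood test, adjusted over the 11831 genes tested, with a threshold of 0.05. All 9 genes were tested. In such bulk libraries fewer cells that express a gene and less RNA per cell cannot be told apart.

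The protein p53 is a transcription factor that is held low in unstressed cells and rises after DNA damage and other stress. MDM2 marks it for degradation, its relative MDM4 blocks its activity, and the phosphatase encoded by PPM1D removes activating phosphates from it and from upstream kinases. MDM2 and PPM1D are themselves p53 targets and so close feedback loops. The remaining targets carry out its effects: arrest of the cell cycle (CDKN1A), cell death through mitochondria (BBC3, BAX), control of RNA stability and splicing (ZMAT3), restraint of mTOR signalling (SESN1) and supply of nucleotides for repair (RRM2B).

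Promoter windows of 300 bases, from 250 bases before to 50 after a RefSeq start site (GRCh38.p14), were found for 8 of the 9 genes, with 14 windows in all. They were searched for the p53 response element, which is 2 adjoining p53 half-sites. Its letters are palindromic, so that 1 strand covers both. With up to 3 mismatches over its 20 bases, a setting chosen after the strict half-site had been searched, 5.20% of all 35116 windows held it. It lay in windows of MDM2 and SESN1, and the other 6 genes had no match in these windows. The windows of MDM2 and SESN1 are shown because they hold the element while the counts of these genes moved in opposite directions. Those of ZMAT3 and BBC3 are shown because these genes had the largest fall and the largest rise of the 9. Capitals mark the element. The MDM2 window belongs to the inner of its start sites and lies at chr12:68808767-68809066 on the plus strand. The SESN1 window lies at chr6:109008939-109009238, the ZMAT3 window at chr3:179071760-179072059 and the BBC3 window at chr19:47232618-47232917, each on the minus strand and printed 5′ to 3′ along the gene. The BBC3 window lies wholly upstream of the deposited position of the counted gene (chr19:47220827-47231194). The MDM2 window likewise lies upstream of that of MDM2 (chr12:68809212-68839849). Sequence outside the windows was not searched.
MDM2: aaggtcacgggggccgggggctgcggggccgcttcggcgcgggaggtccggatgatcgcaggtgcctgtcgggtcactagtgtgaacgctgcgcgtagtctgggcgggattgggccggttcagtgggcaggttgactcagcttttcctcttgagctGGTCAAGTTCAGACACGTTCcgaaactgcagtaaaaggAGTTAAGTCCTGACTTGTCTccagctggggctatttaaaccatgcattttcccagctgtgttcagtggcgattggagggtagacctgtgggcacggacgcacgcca
SESN1: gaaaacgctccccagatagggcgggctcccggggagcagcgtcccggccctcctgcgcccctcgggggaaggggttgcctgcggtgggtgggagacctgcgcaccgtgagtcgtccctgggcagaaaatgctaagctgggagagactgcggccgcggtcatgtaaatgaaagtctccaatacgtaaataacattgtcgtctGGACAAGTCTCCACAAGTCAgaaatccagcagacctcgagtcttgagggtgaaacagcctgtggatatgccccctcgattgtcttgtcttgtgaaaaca
ZMAT3: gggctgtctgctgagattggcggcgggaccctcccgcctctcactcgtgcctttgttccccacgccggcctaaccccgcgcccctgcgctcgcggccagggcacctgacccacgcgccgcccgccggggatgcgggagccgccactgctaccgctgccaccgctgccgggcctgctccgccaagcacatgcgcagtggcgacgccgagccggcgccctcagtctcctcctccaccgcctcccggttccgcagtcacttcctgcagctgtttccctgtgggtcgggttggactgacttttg
BBC3: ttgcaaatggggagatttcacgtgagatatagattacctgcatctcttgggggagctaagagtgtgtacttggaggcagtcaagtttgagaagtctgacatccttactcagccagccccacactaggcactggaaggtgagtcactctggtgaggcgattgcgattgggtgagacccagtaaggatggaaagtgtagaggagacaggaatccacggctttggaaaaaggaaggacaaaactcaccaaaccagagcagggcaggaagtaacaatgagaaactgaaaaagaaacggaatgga

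The MDM2 window held 2 such elements, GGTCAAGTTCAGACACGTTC with 2 mismatches, beginning 94 bases before the start site, and AGTTAAGTCCTGACTTGTCT with 3 mismatches, beginning 56 bases before it. The SESN1 window held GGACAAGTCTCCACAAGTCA with 3 mismatches, beginning 49 bases before the start site. A strict half-site with 0 mismatches was present in 1 of the 14 windows, that of SESN1, and in 6.63% of all windows. These are matches of letters, and binding was not measured.

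Of the 9 genes, 5 had lower counts in shHNRNPC (MDM2, ZMAT3, RRM2B, MDM4 and PPM1D) and 3 had higher counts (BBC3, SESN1 and BAX), while CDKN1A did not pass; the direction of MDM4, RRM2B and BAX turned in a fit corrected for transcript GC content and length, in which PPM1D also lost its call and CDKN1A was called lower. Over all tested genes 61.1% were called, 29.8% higher and 31.3% lower, so that a call alone is common in this comparison. A change of at least 1.5-fold was rarer. ZMAT3 and MDM2 fell and BBC3 rose by that much, against 9.12% of all tested genes lower and 4.9% higher by the same rule. After correction for transcript GC content and length, MDM2 and BBC3 no longer reached 1.5-fold. The groups did not overlap for 8 of the 9 genes, and for 64.0% of all tested genes. They were apart and higher in shHNRNPC for 2 of the 9 genes (30.9% of all tested genes) and apart and lower for 6 (33.0%). The median log2 fold change of the 9 genes was -0.21, beside -0.0041 for all tested genes. The authors' deposited table calls 5 of the 9 genes at an adjusted p under 0.05, namely MDM2, ZMAT3, BBC3, BAX and RRM2B, and 39.7% of its genes.

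**Figure D1:**
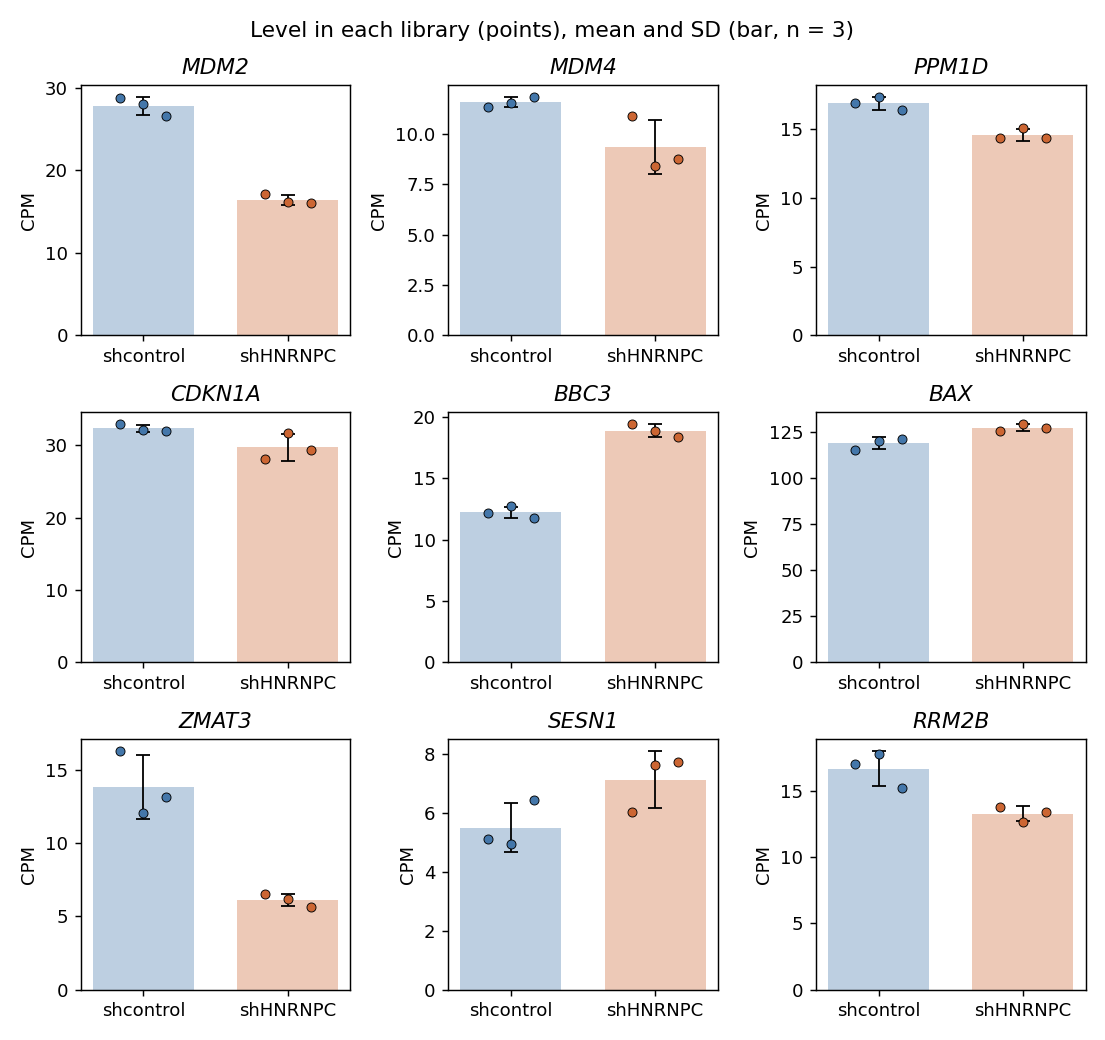
Level of each of the 9 genes in CPM (vertical axis from 0), with 1 point per library, bars for the mean of 3 libraries and error bars for the SD. MDM2 and ZMAT3 lie lower and BBC3 higher in every shHNRNPC library, the groups of SESN1 overlap, and the SI_3 library of MDM4 (leftmost orange point) lies near the shcontrol libraries.

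Among the inhibitors of p53, MDM2 fell most. NC_3, NC_3_2 and NC_3_3 of shcontrol held 28.8, 28.0 and 26.6 CPM of it, and SI_3, SI_3_2 and SI_3_3 of shHNRNPC held 17.1, 16.1 and 16.01 CPM. The knockdown libraries lay closely together and well below every control. The fall was 1.69-fold (95% interval 1.52 to 1.88, log2 fold change -0.76, SE 0.0749, adjusted p = 4.17e-12). The deposited table places MDM2 at chr12:68809212-68839849 on the plus strand. In the GENCODE 29 annotation an exon of MDM2 overlaps one of the gene for carboxypeptidase M on the opposite strand, and whether counting used strand is not given in the sources used here. That neighbour had 92 to 119 counts per library, against 281 to 494 for MDM2. Its log2 fold change of -0.23 (adjusted p = 0.144) did not pass. Exons of MDM2 also overlap a processed pseudogene on its strand and an antisense gene on the other. Neither was among the counted genes.

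MDM4, which binds p53 and pairs with MDM2, had 11.3, 11.5 and 11.8 CPM in the shcontrol libraries and 10.9, 8.39 and 8.77 CPM in SI_3, SI_3_2 and SI_3_3. The SI_3 library sat just under the controls and apart from the other shHNRNPC libraries. The fall was 1.24-fold (95% interval 1.07 to 1.44, adjusted p = 0.0118). It lost its call without SI_3_2 (adjusted p = 0.0851), without SI_3_3 (adjusted p = 0.0560) and in DESeq2 (adjusted p = 0.0719), and with the correction its direction turned (0.13, adjusted p = 0.316). The gene lies at chr1:204516379-204558119 on the plus strand.

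There were 2.53, 2.43 and 2.25 MDM2 counts for each MDM4 count in NC_3, NC_3_2 and NC_3_3, against 1.57, 1.93 and 1.83 in SI_3, SI_3_2 and SI_3_3. This ratio needs no scaling between libraries, and all shHNRNPC values lay under all shcontrol values. The log2 difference was -0.44, with p = 0.1 in a two-sided exact permutation test, the smallest value that 3 libraries against 3 can give, and an adjusted p of 0.1 over the 2 ratios tested.

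PPM1D, the phosphatase also named WIP1, had 16.9, 17.3 and 16.4 CPM in shcontrol and 14.4, 15.1 and 14.4 CPM in shHNRNPC. Every knockdown library was lower, but by little. The fall was 1.15-fold (95% interval 1.02 to 1.30, adjusted p = 0.0330). Its call was lost when any of 4 libraries was left out, NC_3, NC_3_2, SI_3 or SI_3_3 (adjusted p from 0.0599 to 0.0879). It was also lost in DESeq2 (adjusted p = 0.131), with no filter on low counts (adjusted p = 0.0600) and with the correction for GC content and length (adjusted p = 0.411). PPM1D lies at chr17:60600183-60666280 on the plus strand.

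CDKN1A encodes p21, the inhibitor of cyclin-dependent kinases through which p53 halts division. It had 32.9, 32.1 and 32.0 CPM in shcontrol and 28.1, 31.7 and 29.4 CPM in SI_3, SI_3_2 and SI_3_3. The knockdown values were all lower, with SI_3_2 close to the controls. The log2 fold change was -0.12, with a 95% interval from -0.25 to 0.01 and an adjusted p of 0.0951, so that no call was made. Without SI_3_2 the gene passed as lower (-0.17 on the log2 scale, adjusted p = 0.0387), and likewise with library size alone as the scaling (-0.16, adjusted p = 0.0261) and with the correction for GC content and length (-0.23, adjusted p = 0.00148). CDKN1A lies at chr6:36678710-36687337 on the plus strand, and a non-coding gene on the opposite strand overlaps its exons in GENCODE 29.

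Both genes of mitochondrial cell death were higher, BBC3 clearly and BAX slightly. BBC3 encodes PUMA, a BH3-only protein that triggers BAX and counters anti-apoptotic BCL2 proteins. It had 12.2, 12.7 and 11.8 CPM in shcontrol and 19.4, 18.8 and 18.33 CPM in shHNRNPC. The 2 groups were far apart relative to their spread. The rise was 1.54-fold (95% interval 1.37 to 1.74, log2 fold change 0.63, SE 0.0869, adjusted p = 2.73e-08). BBC3 lies at chr19:47220827-47231194 on the minus strand, where GENCODE 29 also has 2 microRNA genes over its exons.

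BAX forms pores in the outer mitochondrial membrane. It had 115, 120 and 121 CPM in NC_3, NC_3_2 and NC_3_3 and 126, 129 and 127 CPM in the shHNRNPC libraries. The highest control was within a few CPM of the lowest knockdown library. The rise was 1.07-fold (95% interval 1.02 to 1.13, adjusted p = 0.0108). Its call was lost without NC_3 (adjusted p = 0.0863), without SI_3_2 (adjusted p = 0.0512) and with library size alone as the scaling (adjusted p = 0.1296). With the correction its direction turned (-0.033, adjusted p = 0.425). BAX lies at chr19:48954929-48961636 on the plus strand.

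BBC3 was also set against BCL2L1, which encodes the anti-apoptotic protein BCL-XL and fell 1.13-fold. For each BCL2L1 count there were 0.0458, 0.0477 and 0.0449 BBC3 counts in shcontrol and 0.0824, 0.0808 and 0.0778 in shHNRNPC. The log2 difference was 0.80 without overlap (two-sided exact permutation test, p = 0.1, the smallest possible, adjusted p = 0.1). It depends on the partner chosen. Of the other anti-apoptotic genes, BCL2 fell 1.53-fold, whereas MCL1 rose 1.15-fold and BCL2L2 1.28-fold, and ratios to these were not computed.

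ZMAT3, an RNA-binding zinc finger protein also called WIG1, had the largest change of the 9 genes. Its level was 16.3, 12.1 and 13.1 CPM in NC_3, NC_3_2 and NC_3_3 and 6.51, 6.16 and 5.66 CPM in the shHNRNPC libraries. NC_3 stood above the other controls, and even the lowest control was well above every knockdown library. The fall was 2.27-fold (95% interval 1.92 to 2.67, log2 fold change -1.18, SE 0.118, adjusted p = 5.67e-12). Without NC_3 the log2 fold change was -1.05. ZMAT3 lies at chr3:179023739-179072215 on the minus strand.

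SESN1, a sestrin that restrains mTOR complex 1, was the least counted of the 9 genes, with 78 to 137 counts per library. It had 5.12, 4.94 and 6.46 CPM in NC_3, NC_3_2 and NC_3_3 and 6.02, 7.65 and 7.75 CPM in SI_3, SI_3_2 and SI_3_3. The groups overlapped, since NC_3_3 was higher than SI_3. The rise was 1.29-fold (95% interval 1.06 to 1.57, adjusted p = 0.0206), and its call was lost without NC_3, NC_3_2, SI_3_2 or SI_3_3 (adjusted p from 0.0695 to 0.0960) and in DESeq2 (adjusted p = 0.0929). SESN1 lies at chr6:108986442-109008988 on the minus strand, and an antisense gene overlaps its exons in GENCODE 29.

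RRM2B encodes the p53-inducible small subunit of ribonucleotide reductase, the enzyme that makes deoxyribonucleotides. It had 16.99, 17.8 and 15.2 CPM in shcontrol and 13.8, 12.7 and 13.4 CPM in shHNRNPC. All knockdown libraries lay lower. The fall was 1.25-fold (95% interval 1.10 to 1.42, log2 fold change -0.33, adjusted p = 0.00171), and the call held without each library in turn. With the correction its direction turned (0.095, adjusted p = 0.382). RRM2B lies at chr8:102208133-102238874 on the minus strand.

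Levels were compared between genes as CPM per kilobase of the longest coding transcript in GENCODE 29, so that the length used may exceed that of the transcripts present. BAX stood highest, at 87.5 ± 2.39 CPM per kilobase in shcontrol and 93.8 ± 1.35 in shHNRNPC. On this scale CDKN1A (14.3 ± 0.217 in shcontrol) and BBC3 (6.65 ± 0.256) followed, then PPM1D (3.54 ± 0.0975) and RRM2B (3.38 ± 0.265), whose ranges overlapped. MDM2 stood at 2.20 ± 0.0871 CPM per kilobase, above SESN1 (1.57 ± 0.237) and ZMAT3 (1.47 ± 0.232), which overlapped each other. MDM4 was lowest at 1.15 ± 0.0247 CPM per kilobase.

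In shHNRNPC the order of the upper 5 genes was the same and no neighbours overlapped. SESN1 (2.03 ± 0.276 CPM per kilobase) then stood above MDM2 (1.30 ± 0.0469), and ZMAT3 (0.650 ± 0.0456) stood below MDM4 (0.928 ± 0.134). These are orders of means with 3 libraries in each group, and no test was made between genes.

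**Figure D2:**
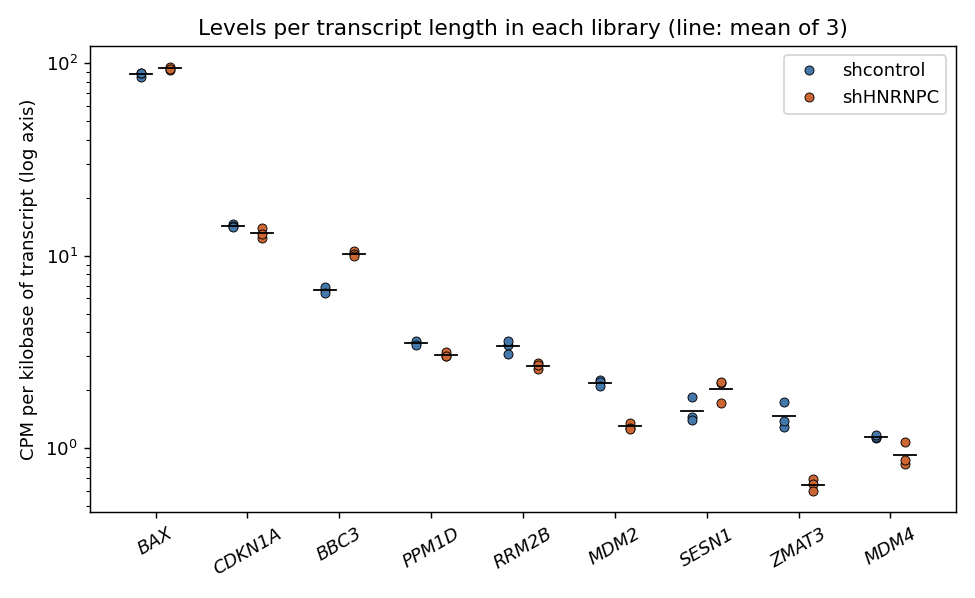
Level of each gene in CPM per kilobase of transcript (log axis) in the 3 shcontrol libraries (blue) and the 3 shHNRNPC libraries (orange), ordered by the shcontrol mean, with a line at each mean. BAX lies highest in all libraries, and the shHNRNPC points of MDM2 and ZMAT3 lie below their shcontrol points.

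The 9 genes range widely in the length and base composition of their transcripts. In the longest coding transcript of GENCODE 29, MDM2 has 12633 bases, MDM4 10073 and ZMAT3 9406, all in the longest of 4 bins of equal size over tested genes, whose median is 3498. BBC3 (1838 bases) and BAX (1358) are in the shortest bin, and SESN1 (3509) is near the median. The GC content is 41.9% for MDM2, 39.5% for ZMAT3 and 36.4% for RRM2B, and 69.7% for BBC3 and 58.9% for BAX, with a median of 48.4% over tested genes. SESN1, which rose, has 43.4% GC, and PPM1D, which was lower, has 45.1%. Runs of at least 5 uridines, the kind of sequence that hnRNP C binds, occur 6.49 times per kilobase in RRM2B, 5.07 in MDM2, 4.86 in MDM4 and 4.36 in ZMAT3, against a median of 1.76. BAX (3.68) and SESN1 (3.13), which rose, are also in the highest of 4 bins for such runs, as is PPM1D (3.98). BBC3 (1.09), which rose, and CDKN1A (1.32) lie below the median. The runs were counted in spliced transcripts, so those in introns of nascent transcripts are not included. The isoforms present in these cells were not identified.

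Over all tested genes the change moved with the same properties. The median log2 fold change was -0.20 in the bin of the longest transcripts and 0.11 in that of the shortest. It was -0.33 in the bin of lowest GC content and 0.11 in that of the highest. The fit was therefore repeated with offsets that remove each library's trend with transcript GC content and length. Whether the trend came from library preparation or from the knockdown was not tested. The offsets remove a trend of either kind, so a corrected value is not necessarily closer to the true change.

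After this correction ZMAT3 and MDM2 were still called lower, by less (log2 fold change -0.69, adjusted p = 1.26e-06, and -0.31, adjusted p = 3.21e-04). BBC3 was still called higher (0.48, adjusted p = 4.77e-06), and SESN1 likewise (0.47, adjusted p = 0.00323). The direction turned for MDM4, RRM2B and BAX, none of which was called. PPM1D lost its call (log2 fold change -0.085), and CDKN1A was called lower. With the correction 2 of the 9 genes were thus higher and 3 lower, 5 in all, beside 28.7% of all tested genes higher, 26.4% lower and 55.1% called in the same fit. The share of the 9 genes called is therefore near that of all genes. Of ZMAT3, MDM2 and BBC3, ZMAT3 alone still changed by at least 1.5-fold (1.61-fold lower, against 3.81% of all tested genes lower by that much), while MDM2 fell 1.24-fold and BBC3 rose 1.40-fold.

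**Figure D3:**
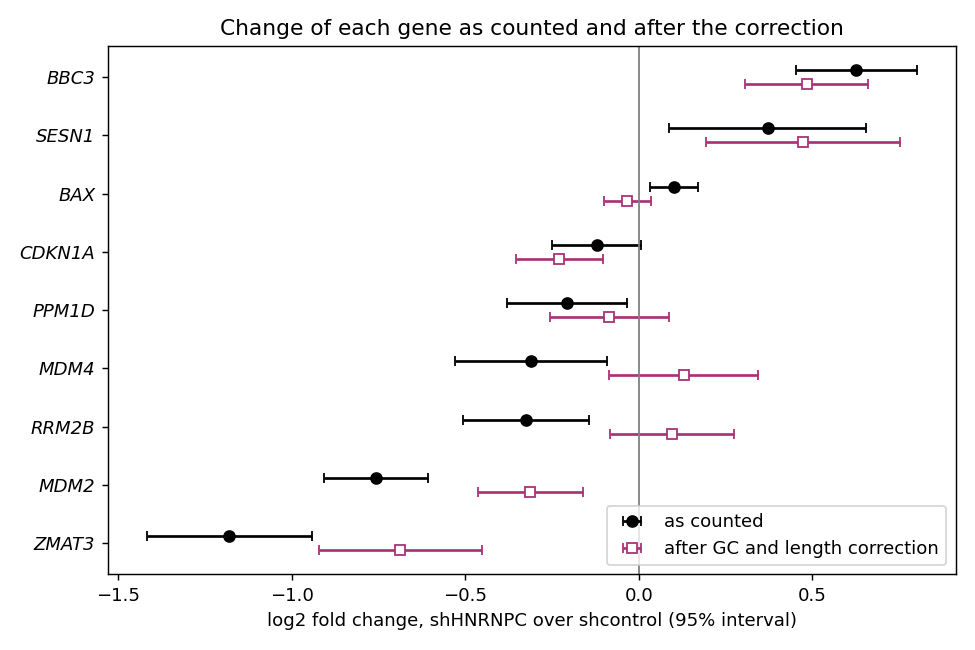
Log2 fold change of shHNRNPC over shcontrol for each gene (horizontal axis), with 95% intervals, as counted (black circles) and after the correction for transcript GC content and length (open squares). ZMAT3, MDM2, PPM1D, CDKN1A, SESN1 and BBC3 keep their side of 0, whereas MDM4, RRM2B and BAX cross it with intervals that include 0. The corrected interval of PPM1D also includes 0, and that of CDKN1A does not.

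Other genes of the pathway were taken from lists, chosen with earlier results of these data known. Of 38 other p53 target genes 33 were tested, and 15 were higher (45.5%) and 3 lower (9.09%). Over all tested genes 29.8% were higher and 31.3% lower. The median log2 fold change of the list was 0.14, beside -0.0041 for all tested genes. GDF15, a secreted stress cytokine, rose 3.07-fold, from 4.45 ± 0.628 to 13.6 ± 0.821 CPM (adjusted p = 9.02e-16). TNFRSF10B, the death receptor for TRAIL, rose 1.40-fold to 227 ± 4.93 CPM (adjusted p = 5.05e-19). TSKU, a secreted leucine-rich protein, rose 1.45-fold, and PLXNB2, a semaphorin receptor, rose 1.16-fold. All 4 kept these calls after the GC and length correction. Under it the list had 15 genes higher and 5 lower, beside 28.7% and 26.4% of all tested genes.

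Of 30 regulators and cofactors of p53, 29 were tested, and 9 were higher and 12 lower (median -0.0030). These shares, 31.0% and 41.4%, stood beside 29.8% and 31.3% of all tested genes. XPO1, the receptor that exports p53 and other cargo from the nucleus, fell 2.13-fold to 80.5 ± 1.21 CPM. USP7, a protease that removes ubiquitin from MDM2 and p53, fell 1.46-fold, from 83.7 ± 4.06 to 57.6 ± 1.55 CPM (adjusted p = 2.37e-14). SIRT1, a deacetylase of p53, fell 1.87-fold, from 23.5 ± 1.82 to 12.5 ± 0.494 CPM (adjusted p = 7.55e-13). RPL11, a ribosomal protein that can bind and inhibit MDM2, rose 1.17-fold, from 907 ± 16.3 to 1061 ± 9.88 CPM. The calls of these 4 genes held after the correction, with log2 fold changes of -0.76, -0.41, -0.65 and 0.087.

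Of the 12 tested genes of the BCL2 family, 6 were higher and 3 lower (median 0.13). These counts stood beside 29.8% higher and 31.3% lower over all tested genes. Under the GC and length correction 5 of the family were higher and 4 lower, beside 28.7% and 26.4% of all tested genes. The anti-apoptotic genes moved in different directions. BCL2 fell 1.53-fold (16.9 ± 0.571 to 11.1 ± 0.681 CPM, adjusted p = 1.48e-07) and BCL2L1 fell from 265 ± 2.34 to 235 ± 1.46 CPM, while MCL1 rose 1.15-fold to 371 ± 7.64 CPM and BCL2L2 rose 1.28-fold. These 4 calls held after the correction.

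Among relatives of the 9 genes by family or enzyme, 12 were tested, with 1 higher and 3 lower (median -0.056). The list was thus called less often than all tested genes, of which 29.8% were higher and 31.3% lower (61.1% in all). Under the GC and length correction 4 of the relatives were higher and 2 lower, beside 28.7% and 26.4% of all tested genes. PPM1F, another phosphatase of the family of PPM1D, fell 1.75-fold, from 118 ± 3.99 to 67.2 ± 0.172 CPM (adjusted p = 2.35e-22). ZMAT2, a zinc finger gene, rose 1.23-fold. RRM1, the large subunit of ribonucleotide reductase, fell 1.09-fold but was not called once corrected (-0.044, adjusted p = 0.256). PPM1A, a further phosphatase of that family, fell 1.16-fold, and the correction turned it to a call higher (0.31, adjusted p = 0.00100). It also lost its call without NC_3_2, SI_3 or SI_3_2 (adjusted p from 0.0759 to 0.214).

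**Figure D4:**
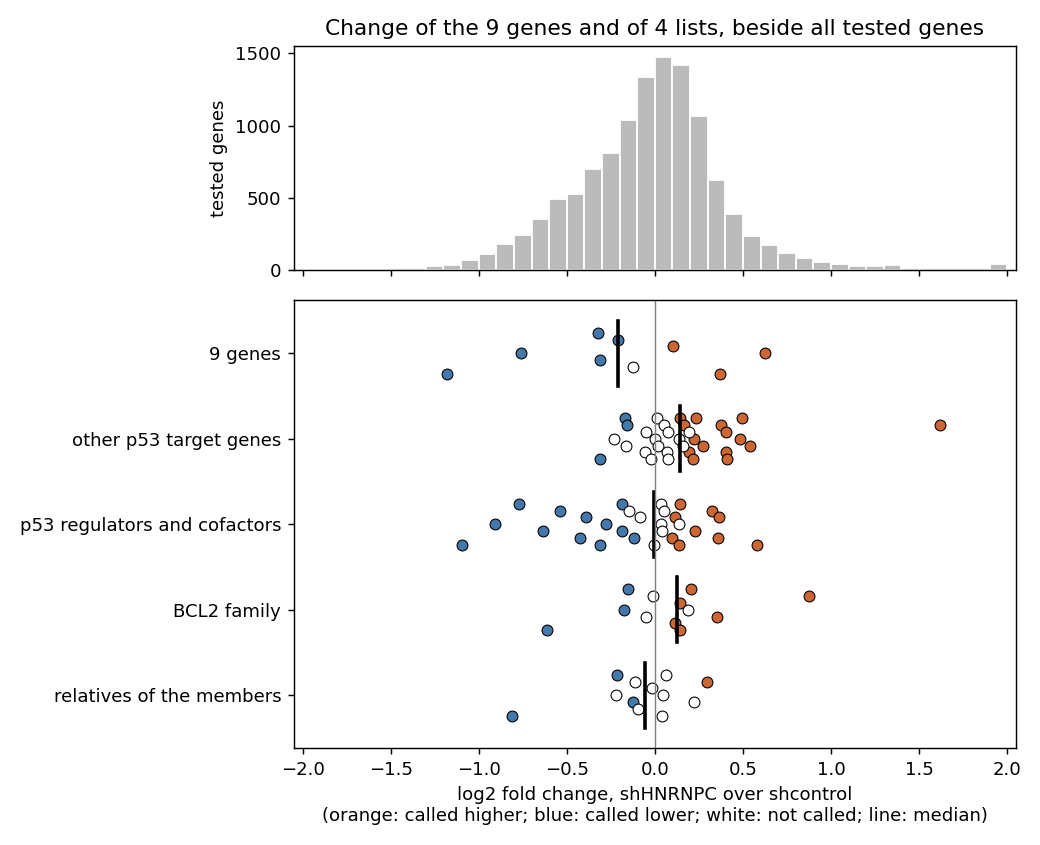
Log2 fold change of shHNRNPC over shcontrol: the upper panel counts all 11831 tested genes in bins of 0.1, with values beyond 2 in either direction in the end bins. The lower panel has 1 point per gene of the 9 genes and of each list, orange for called higher, blue for called lower, white for not called, with a line at the median. The median of the 9 genes lies at -0.21 and that of the other p53 target genes at 0.14.

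The pattern of MDM2 over the 6 libraries was most closely matched by 3 genes outside the 9, by Euclidean distance between mean-centred log2 values of CPM + 0.01 among 9690 genes with a mean of at least 5 CPM. They were MTM1 (distance 0.0596), GSS (0.0670) and ARFGEF1 (0.0773). They encode a lipid phosphatase, glutathione synthetase and an exchange factor for ARF GTPases. Their falls were 1.66-fold, 1.64-fold and 1.67-fold. Since libraries of a group lay close together, this distance mostly picks genes with a fall of like size. A log2 fold change between -0.8 and -0.7 was found for 241 tested genes.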

How the data were processed

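RNA from MHCC97H cells was sequenced in 6 libraries. STAR, HTSeq 0.6.0 and DESeq2 are the tools listed per the submitters' processing notes. Genome build, annotation and strand use were not given in the sources used here. Read counts were taken as deposited by the authors, whole numbers with no normalisation. The authors' deposited table also gives a log2 fold change, p-value and adjusted p-value per gene for SI over NC. Columns were assigned to groups by their names, NC read as control and SI as knockdown, and their suffixes give no replicate number of the titles. Another 24 columns of per-library values were not used, including a length-scaled block, so that levels per length were computed from the counts.

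Counts were filtered with filterByExpr, scaled by TMM and tested with glmQLFit and glmQLFTest in edgeR 4.0.16 (R 4.3.3), with Benjamini-Hochberg adjustment. Standard errors come from the fold change and the F statistic. Alternatives were RLE, upper quartile and library size scaling, no filter, a mean of at least 1 CPM, DESeq2 1.42.0, each library left out, the column suffix as a block, and offsets from a loess (span 0.5) of each library's log values on GC content and log length of the longest coding transcript (GENCODE 29). Chi-square per gene was 1.56 to 2.50 between libraries of a group, where counting noise alone gives 1, so no pair was treated as the same library.

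The members and lists were chosen with earlier results of these data known. Genes were named by a rule: the 9 members, HNRNPC, up to 4 called genes per list with the smallest p, and the 3 nearest to MDM2. Counts were also simulated for this comparison over 11837 genes. The test found 72% of the genes changed 1.25-fold, 90% at 1.5-fold and 96% at 2-fold, and 11 calls were false. These figures describe the simulated counts only. They were not broken down by count level, GC content or transcript length. They therefore cannot show how often a change would be found or falsely called in genes such as SESN1, MDM4 and ZMAT3.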

Additional observations from a re-analysis of the deposited data

How the results depend on the processing

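Of the 9 genes, MDM2 and ZMAT3 stayed called lower and BBC3 called higher under all 14 alternatives, with log2 fold changes from -0.80 to -0.31, from -1.26 to -0.69 and from 0.48 to 0.65. The number of the 9 genes called lower was 3 in DESeq2, where 3156 of 13480 tested genes were lower. It was also 3 after the GC and length correction, beside 26.4% of all tested genes lower. In the main fit it was 5, beside 31.3% lower. The share of tested genes called in either direction was 45.7% in DESeq2, 55.1% after the correction and 61.1% in the main fit. With a library left out the number called lower ran from 3 to 5, and the number called higher from 1 to 3. In those fits the share of all tested genes called in either direction ran from 56.4% to 58.3%. The correction turned MDM4 to 0.13, RRM2B to 0.095, BAX to -0.033 and PPM1A to 0.31, because its offsets follow transcript GC content and length. Other p53 target genes called lower numbered 5 after it, beside 26.4% of all tested genes called lower. Among relatives of the 9 genes, 2 were higher with upper quartile scaling, beside 3719 of all 11831 tested genes. At a mean of at least 1 CPM 2 were higher, beside 3471 of 11340. After the correction 4 were higher, beside 28.7%. With library size alone 5 were lower, beside 4160 of 11831. With a library left out 1 to 2 of the relatives were higher and 2 to 4 lower. Library size alone moved the median of all tested genes to -0.044. The log2 difference of the MDM2 to MDM4 ratio ran from -0.50 to -0.36 with a library left out, and that of BBC3 to BCL2L1 from 0.78 to 0.82. The titles share replicate numbers between groups, but the columns do not carry them. Same-suffix libraries had correlations of deviations from -0.082 to 0.052 and are not pairs by that check. With the suffix as a replicate block, 3 of the 9 genes were higher and 5 lower, and it changed none of their calls. In that fit 60.5% of all tested genes were called. No low-count filter left PPM1D uncalled (adjusted p = 0.0600). SESN1 had 78 to 137 counts per library, ZMAT3 100 to 277 and MDM4 147 to 220, which limits the precision of their values.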

Other observations

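A few further genes of the lists stood out and are named after their values were seen. BMF, a BH3-only gene like BBC3, rose 1.83-fold (log2 fold change 0.87, adjusted p = 2.25e-06 by edgeR's quasi-likelihood test), with 52 to 165 counts per library. ATM, the kinase that signals DNA breaks to p53 and MDM2, fell 1.71-fold (log2 fold change -0.77, adjusted p = 1.05e-10), and CHEK2, a kinase it activates, rose 1.49-fold (adjusted p = 3.30e-10). All 3 were still called once GC content and transcript length were corrected for, with log2 fold changes of 0.80, -0.28 and 0.53. Other BH3-only genes of the BCL2 family list differed in the main fit. There PMAIP1 and BID were called higher (log2 fold changes 0.142 and 0.143), HRK was called lower (-0.154), and BAD and BCL2L11 were not called.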
